A study of Mus musculus with 12 samples.

Results

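The replication-dependent histone genes were followed in fibroblasts grown from mouse embryos, with and without MLL1, the histone H3 lysine 4 methyltransferase encoded by Kmt2a. Members were taken by name: all probe sets whose symbol on the array platform began with an older histone cluster name (Hist1h to Hist4h) or, under updated names, with H1f, H2ac, H2bc, H3c or H4c and a number. The rule found 56 of 35557 probe sets, and 54 remained once 2 with values identical to another were counted once. These 54 listed 66 gene symbols. The listing is by annotation, and signal from related histone genes in a probe set that lists 1 gene was not tested. Of the 54, 30 listed 1 gene each (8 linker histone H1, 4 H2A, 9 H2B, 3 H3 and 6 H4 genes) and 24 listed several genes, and values of such probe sets belong to no gene alone. There, 2 H2A probe sets listed 19 and 20 symbols (both with H2ax and the H3 gene H3c4 among them), 6 H2B probe sets 14 or 15, all 10 H3 probe sets the same 12, 4 H4 probe sets 11 and another H4 probe set 2, and the last listed H2bc6 with H1f4. The updated names also brought in 3 genes that carry no older cluster name, H1f7, H1f8 and H1f10; H1f10 is a linker histone gene outside the clusters, and H1f7 and H1f8 are germ line linker histones.

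The study compared 4 groups of 3 arrays each: MLL1-KO fibroblasts 30 h after the serum shock (CT30), MLL1-KO fibroblasts 18 h after it (CT18), WT fibroblasts at CT30 and WT fibroblasts at CT18. All cells had grown in DMEM with 5% FBS and 5% NCS and received 50% horse serum for 2 h, which resets the circadian clocks of a culture together. The sources used here do not give how the MLL1 allele was disrupted or whether replicates came from separate cultures. The p-values therefore measure array-to-array spread, part or all of which may be technical. The sample titles give genotype, time and replicate number and name no embryo or cell line. Differences between the cells of each genotype other than MLL1 were thus not tested and cannot be told apart from it. The labels state that cDNA was made with random hexamers from the poly(A)+ RNA within 100 ng of total RNA.

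Replication-dependent histone mRNAs carry the core histones H2A, H2B, H3 and H4 and the linker histones H1 that package newly made DNA. Their genes lie in clusters, are transcribed mainly in S phase with the coactivator NPAT, and give mRNAs without introns that end in a stem-loop bound by SLBP in place of a poly(A) tail. Some of them, among them the human counterparts of H1f2, H2bc4 and H2bc21, are known to give polyadenylated transcripts as well in cells that leave the cycle. Probe set intensity cannot tell stem-loop from polyadenylated transcripts, and the share of each in these RNA samples was not tested.

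The promoters of 6 members, picked by hand from those whose level differed between genotypes, are shown with the direction of each change. H2bc4 and H2bc21 had no promoter window on hand, and those of H1f10, H3c4, H4c6, H2ac15 and H4c4 are not shown. Whether an element goes with the direction of change was not tested. They are the 250 bases before the annotated start in RefSeq (build GRCm38.p6), 5′ to 3′ on the gene's own strand. Capitals mark the CCAAT box, the TATA box (spelled TATAAA), the octamer known from H2B promoters (spelled ATTTGCAT) and the element known from H1 promoters that is spelled AAACACA, on either strand. Read from the other strand, the CCAAT box appears as ATTGG.
H1f2 (lower; chr13:23738557-23738806, plus strand): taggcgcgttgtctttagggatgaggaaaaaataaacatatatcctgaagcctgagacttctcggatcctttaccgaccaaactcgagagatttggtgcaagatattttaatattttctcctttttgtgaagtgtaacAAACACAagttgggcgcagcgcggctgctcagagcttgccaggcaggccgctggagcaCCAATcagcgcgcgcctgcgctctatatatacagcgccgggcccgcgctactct
H1f3 (lower; chr13:23554782-23555031, plus strand): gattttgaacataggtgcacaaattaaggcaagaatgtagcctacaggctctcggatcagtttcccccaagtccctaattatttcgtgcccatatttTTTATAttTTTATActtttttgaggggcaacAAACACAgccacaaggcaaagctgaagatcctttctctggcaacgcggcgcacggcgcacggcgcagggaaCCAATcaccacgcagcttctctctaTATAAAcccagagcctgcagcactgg
H1f1 (higher; chr13:23763418-23763667, plus strand): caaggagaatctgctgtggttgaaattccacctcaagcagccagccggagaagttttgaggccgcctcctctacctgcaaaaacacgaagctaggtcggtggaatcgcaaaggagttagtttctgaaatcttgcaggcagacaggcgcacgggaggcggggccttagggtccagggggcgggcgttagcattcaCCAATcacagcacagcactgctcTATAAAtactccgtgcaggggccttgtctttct
H1f5 (higher at CT18; chr13:21780626-21780875, minus strand): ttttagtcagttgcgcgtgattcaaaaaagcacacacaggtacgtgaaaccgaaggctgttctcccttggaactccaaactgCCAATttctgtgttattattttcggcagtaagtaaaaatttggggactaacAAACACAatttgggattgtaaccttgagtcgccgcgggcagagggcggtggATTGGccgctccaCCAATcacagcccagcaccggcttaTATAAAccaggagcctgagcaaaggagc
H2bc8 (lower at CT30; chr13:23571150-23571399, plus strand): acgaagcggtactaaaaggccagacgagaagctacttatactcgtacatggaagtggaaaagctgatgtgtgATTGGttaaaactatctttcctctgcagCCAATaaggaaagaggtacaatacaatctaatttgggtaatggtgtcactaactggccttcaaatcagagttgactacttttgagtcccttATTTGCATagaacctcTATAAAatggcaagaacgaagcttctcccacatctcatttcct
H2bc18 (higher at CT18; chr3:96269450-96269699, plus strand): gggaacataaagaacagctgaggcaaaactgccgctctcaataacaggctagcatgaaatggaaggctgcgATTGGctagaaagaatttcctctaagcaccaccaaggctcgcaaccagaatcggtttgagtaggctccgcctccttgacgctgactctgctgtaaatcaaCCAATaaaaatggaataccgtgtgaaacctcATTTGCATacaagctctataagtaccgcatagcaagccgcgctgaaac
The AAACACA element began 112 bases before the start of H1f2, 122 before H1f3 and 117 before H1f5, and was not in the window of H1f1. Nearest to the start, CCAAT began at 54 bases in H1f2, 51 in H1f3, 56 in H1f1 and 53 in H1f5. The octamer began 59 bases before the start of H2bc8, lower in MLL1-KO at CT30, and 48 before that of H2bc18, higher at CT18.

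RefSeq promoter windows of 300 bases, from 250 before to 50 after the start, were on hand for 61 of the 66 member genes (62 promoters, searched on both strands). CCAAT was present in 83.9% of them and in 37.4% of all 32534 promoters. It was found in all 17 H2A, all 15 H2B and all 10 H3 promoters, and in 3 of 11 H4 promoters. TATAAA was present in 54.8% against 13.6% of all promoters. The octamer was present in 21% of member promoters against 1.75% of all, and lay in 7 of the 15 H2B and 6 of the 17 H2A promoters and in none of the H1, H3 or H4 windows. AAACACA was in 14.5% of member promoters against 7.2% of all, with 5 of the 9 H1 promoters holding it. One of these was H1f6, which did not pass the genotype tests below. The E-box CACGTG, the element bound by the clock factors CLOCK and BMAL1, was in 0 of 62 member promoters and in 7.17% of all promoters. The window of H1f10, higher in MLL1-KO at both times, held none of the elements named here. These counts describe letters in a window and are not binding sites.

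Values are the deposited intensities, on a linear scale, and changes are differences of log2(intensity + 16), tested with limma over 24890 probe sets above a low-value filter (log2 7.37, an intensity of about 149). A probe set was called when its Benjamini-Hochberg adjusted p over all 24890 was under 0.05. Of the 54 members, 52 passed the filter. H1f8, the oocyte linker histone (95.1 to 143 across the 12 arrays), and H3c7 (42.4 to 144) did not, and were not tested. Levels of different probe sets are not compared with each other.

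Kmt2a, the disrupted gene, measured 1338, 1367 and 1584 in MLL1-KO at CT30, against 2129, 2155 and 2069 in WT (log2 change −0.57, adjusted p = 0.00061). Its CT18 values were 2120, 2175 and 1960 in MLL1-KO, against 2265, 2824 and 2100 in WT (−0.19, adjusted p = 0.15), and those arrays overlapped. The sources used here do not say whether the probes lie in the disrupted part. Of 10 tested fibroblast markers, 2 were higher and 5 lower in MLL1-KO at CT30, and 3 higher and 5 lower at CT18. Of all tested probe sets 39.8% and 49% were called. Col1a1 was at 6095 or above on all 12 arrays, with a CT18 mean of 9193 in MLL1-KO against 6388 in WT. Lum was at 55.3 or below on all 12, under the filter. Pdgfra (−2.93 at CT30 and −3.22 at CT18), Pdgfrb, Col3a1, S100a4 and Vim were lower in MLL1-KO and Dcn (4.33 and 3.74) was higher. Of 4 tested macrophage and blood markers, Cd68 was higher in MLL1-KO at CT18 (mean 2305 against 1175 in WT), and 0 were called at CT30. Of 5 epithelial markers, 1 was higher at CT18 and 0 were called at CT30. The 4 endothelial markers were under the filter. Of 5 neural and glial markers, Nes (5.84 at CT30, 5.66 at CT18), Map2 and Tubb3 were higher in MLL1-KO at both times. The mean log2 level of those 5 lay between 9.48 and 9.68 on the 6 MLL1-KO arrays and between 6.93 and 7.15 on the 6 WT arrays, and its part in the histone differences was not tested. In bulk RNA, fewer cells of a type and less RNA per cell cannot be told apart.

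Histone probe sets had a shared order among the replicates of a group. Replicate 3 of WT CT18 was the highest of its group in 46 of the 52 tested members. In MLL1-KO CT30, replicate 1 was the highest in 49 and replicate 3 the lowest in 47. In MLL1-KO CT18, replicate 3 was the highest in 44. In WT CT30, replicate 1 was the highest in 42 and replicate 2 the lowest in 44. At each time the array most often highest thus had the same number in both genotypes. Whether same-numbered arrays were handled together was not tested. The median SD of a member between replicates (log2) was 0.268 in MLL1-KO CT30, against 0.118 over all tested probe sets, and 0.284 in WT CT18, against 0.116. In MLL1-KO CT18 it was 0.0962, against 0.121 over all, and in WT CT30 0.103, against 0.0953. Some results below are also given without MLL1-KO CT30 replicate 1 or without WT CT18 replicate 3. Others are given with all arrays only, without another array, or as the range over leaving out each array.

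The multi-gene probe sets cover most genes of each core histone family. The mean log2 level of the 22 H2A, H2B, H3 and H4 multi-gene probe sets (without the H4 probe set listing 2 genes) was 13.54, 13.25 and 13.12 in MLL1-KO CT30, 13.16, 13.15 and 13.23 in MLL1-KO CT18, 13.44, 13.25 and 13.38 in WT CT30, and 12.90, 12.73 and 13.27 in WT CT18. In WT CT18, replicate 3 lay among the other groups' arrays while replicates 1 and 2 lay below all the other arrays. The mean level of 32 S phase genes was 10.97 to 11.09 in MLL1-KO CT30, 10.99 to 11.09 in MLL1-KO CT18, 11.09 to 11.22 in WT CT30, and 10.80, 10.72 and 10.76 in WT CT18. By that measure WT CT18 replicate 3 lay between the other WT CT18 arrays.

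**Figure D1:**
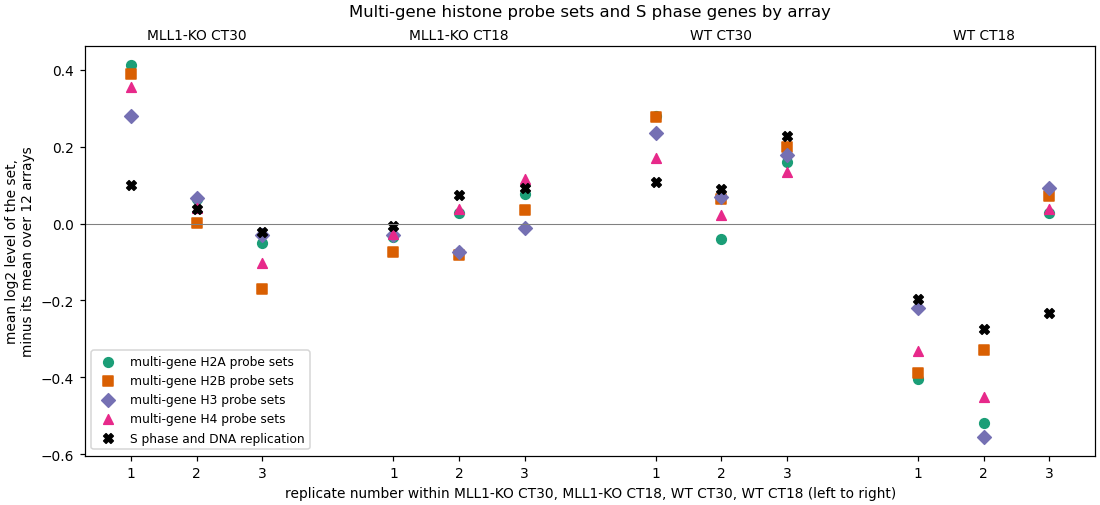
Mean log2(intensity + 16) of the multi-gene H2A, H2B, H3 and H4 probe sets and of 32 S phase genes on each of the 12 arrays (x axis, by group and replicate number), minus the set's mean over the 12 arrays (y axis). In WT CT18 the histone sets of replicates 1 and 2 sit below 0 and those of replicate 3 above 0, while the S phase genes are below 0 on all 3 arrays.

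The genotype comparisons asked which transcripts differed in level between MLL1-KO and WT cells at each circadian time. At CT30, 2 of the 52 histone members were higher in MLL1-KO and 6 were lower, 8 in all, where 39.8% of all tested probe sets were called (19.4% higher and 20.4% lower). H1f10 and H1f1 were the higher ones, and H2bc4, H1f2, H1f3, H2bc8, H2bc21 and H3c4 the lower ones. At CT18, 7 were higher and 5 lower, 12 in all, where 49% of all tested probe sets were called (21.4% higher and 27.6% lower). The members called lower at CT18 were H2bc4, H1f3, H3c4, H1f2 and H2bc21, and those called higher were H1f1, H2bc18, H1f10, H1f5, H4c6, H2ac15 and H4c4. Calls thus took 15.4% of the members at CT30 and 23.1% at CT18, and the difference of these shares from those of all probe sets was not tested. Their median log2 change was −0.05 at CT30 and 0.21 at CT18, against 0.04 and −0.03 over all tested probe sets. All of the calls fell on probe sets of 1 gene: 8 of 28 at CT30 and 12 of 28 at CT18, with 0 of the 24 multi-gene probe sets called at either time by limma (0 of 24 at an unadjusted p under 0.05 at CT30, and 6 of 24 at CT18, against 46.5% and 54.2% of all tested probe sets).

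MLL1-KO and WT arrays stood fully apart in 9 of 52 members at CT30, as they did in 51.8% of all tested probe sets, and in 12 of 52 at CT18, where that share was 54.2%. The CT18 count moved between 8 and 39 when 1 array was left out, the most without WT CT18 replicate 3. That array was the highest of its group in 46 of these members, so leaving it out lowers their WT CT18 means by construction. Without that array 39 members were called, 34 higher and 5 lower in MLL1-KO, with 48.4% of all probe sets called, and the median member change was 0.38. Without MLL1-KO CT30 replicate 1, which enters that comparison only through the shared spread, 21 were called, 15 higher and 6 lower, with 48.9% of all probe sets called. At CT30 the count stayed between 8 and 9 whichever array was left out. Averaged over both times, 4 members were higher and 6 lower (10 called). The higher ones were H1f1, H1f10, H1f5 and H2bc18. The lower ones were H2bc4, H1f2, H1f3, H2bc21, H3c4 and H2bc8. Of all probe sets 54.1% were called, 25.3% higher and 28.8% lower. Without WT CT18 replicate 3, 22 members and 53.8% of all probe sets were called.

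**Figure D2:**
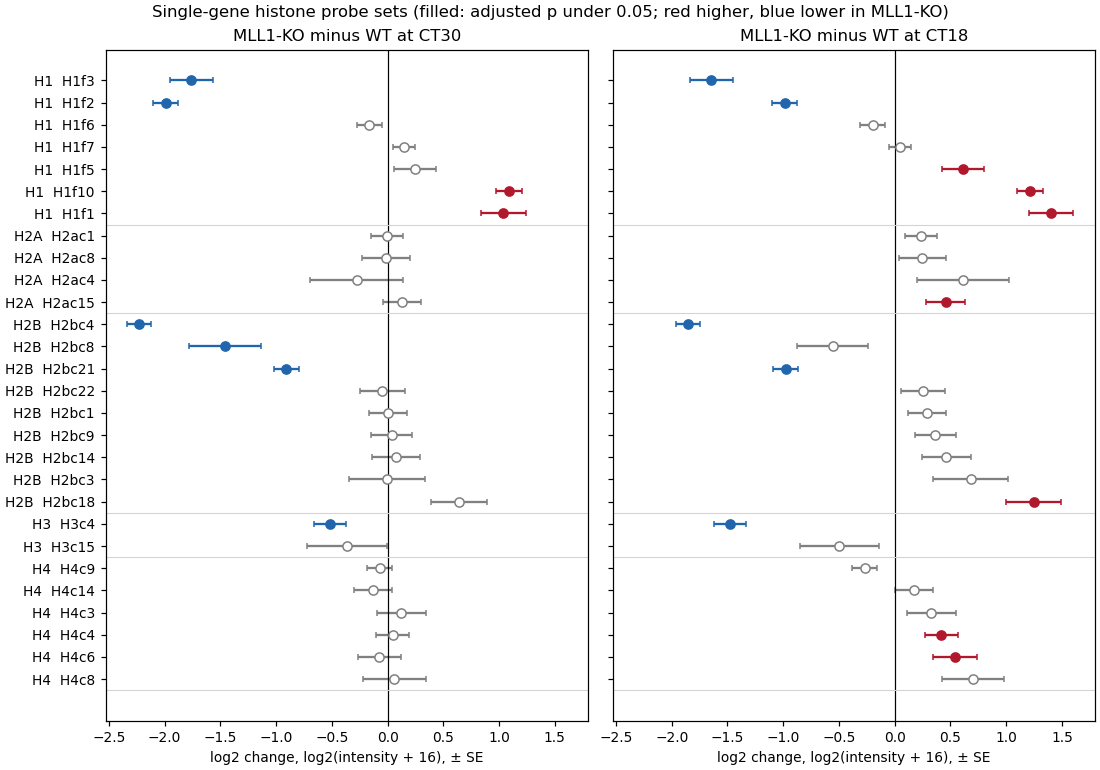
Difference in log2(intensity + 16), MLL1-KO minus WT, with its standard error for the 28 tested single-gene histone probe sets (rows, by class), at CT30 (left) and CT18 (right). Filled points passed an adjusted p of 0.05; the lower members H2bc4, H1f3, H1f2, H2bc21 and H3c4 are filled blue at both times, and H1f1 and H1f10 are filled red at both times.

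Linker histones H1 bind the DNA between nucleosomes, and their somatic subtypes split into lower and higher ones in MLL1-KO cells. H1f2 measured 1768, 1412 and 1502 in MLL1-KO at CT30, against 6422, 5776 and 6480 in WT, a 3.97-fold lower level (log2 change −1.99 ± 0.11 SE, adjusted p = 9.8e-09). At CT18 it measured 2721, 3341 and 3758 in MLL1-KO, against 6800, 6011 and 6523 in WT (−0.98 ± 0.11, adjusted p = 8.5e-06). Every MLL1-KO array lay below every WT array at both times. H1f3, another somatic subtype, measured 912, 606 and 439 in MLL1-KO at CT30, against 2202, 1975 and 2293 in WT, and 553, 558 and 712 in MLL1-KO at CT18, against 1864, 1989 and 1911 in WT. It was 3.39-fold lower at CT30 (−1.76 ± 0.19, adjusted p = 8.1e-06) and 3.13-fold lower at CT18 (−1.64 ± 0.19, adjusted p = 1.1e-05), again with no overlap.

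H1f1, a somatic subtype known from thymus, testis and spleen, went the other way. It measured 3755, 2354 and 2041 in MLL1-KO at CT30, against 1363, 1090 and 1376 in WT, and 1919, 1938 and 2180 in MLL1-KO at CT18, against 692, 634 and 959 in WT. It was 2.05-fold higher at CT30 (1.04 ± 0.20, adjusted p = 0.00099) and 2.64-fold higher at CT18 (1.40 ± 0.20, adjusted p = 6.4e-05), without overlap. H1f10, usually counted among the replication-independent histones, measured 1686, 1389 and 1339 in MLL1-KO at CT30, against 657, 702 and 681 in WT. The CT18 values of H1f10 were 1569, 1437 and 1793 in MLL1-KO, against 668, 601 and 781 in WT, and its changes were 1.09 ± 0.12 at CT30 (adjusted p = 6.2e-06) and 1.21 ± 0.12 at CT18 (adjusted p = 1.7e-06). H1f10 thus showed a difference of about the same size at both times.

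Tested at each time, H1f5 passed at CT18 alone, at 2670, 2943 and 3323 in MLL1-KO against 1723, 1787 and 2345 in WT (0.61 ± 0.19, adjusted p = 0.016). Averaged over both times H1f5 was called higher, and that call held in all 26 alternatives that kept the threshold (0.31 to 0.55). Its CT30 change was 0.25 (adjusted p = 0.34), and the difference between the times was not called (−0.37, adjusted p = 0.46). Its CT18 call was lost without WT CT18 replicate 1 (adjusted p = 0.064), WT CT18 replicate 2 (0.053) or MLL1-KO CT18 replicate 3 (0.057). H1f6, the testis-specific linker histone, had 149 to 204 over the 12 arrays, close to the filter, and was not called (−0.16 at CT30 and −0.20 at CT18). H1f7, the other germ line subtype tested, had 396 to 504 and was not called either (0.15 and 0.05).

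**Figure D3:**
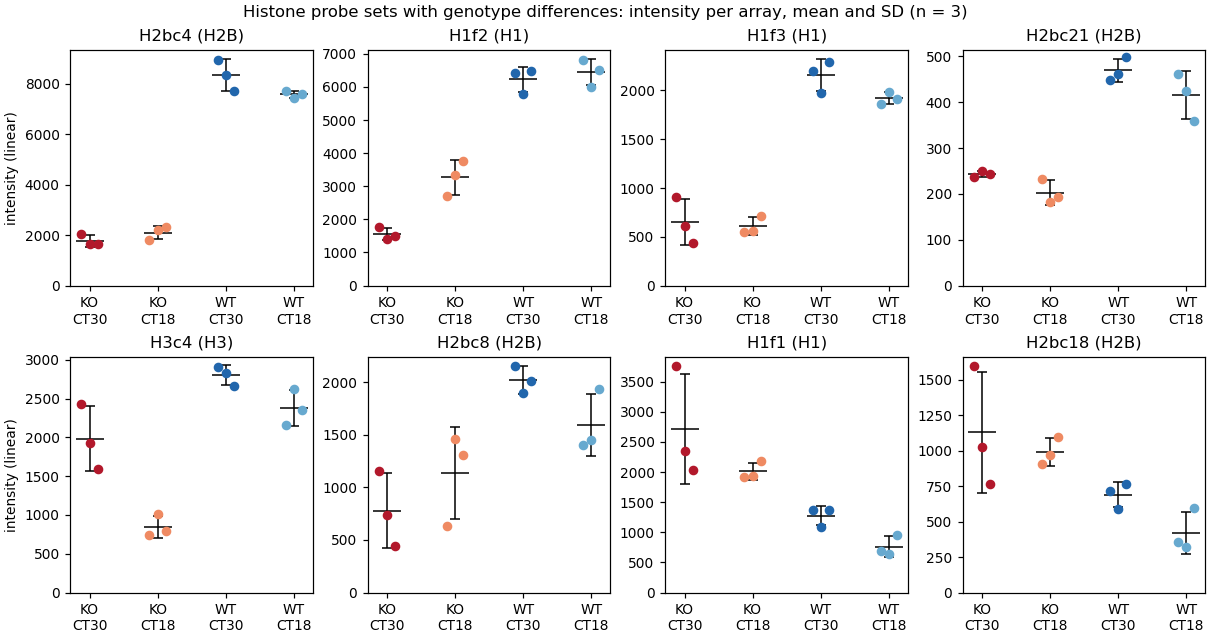
Intensity (linear, y axis from 0) of 8 single-gene histone probe sets on each array, for MLL1-KO CT30, MLL1-KO CT18, WT CT30 and WT CT18 (x axis); points are arrays, horizontal lines means and bars the SD of 3 arrays. H2bc4, H1f2, H1f3 and H2bc21 lie lower on all MLL1-KO arrays than on any WT array, and H1f1 lies higher.

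Among the genes of H2B, which pairs with H2A in the nucleosome, 3 of 9 were lower in MLL1-KO at CT30 and 2 at CT18, with 1 higher at CT18. H2bc4 had the lowest change of all members at both times. It measured 2041, 1642 and 1633 in MLL1-KO at CT30, against 8962, 8358 and 7701 in WT, and 1799, 2185 and 2308 in MLL1-KO at CT18, against 7723, 7423 and 7595 in WT. That was 4.69-fold lower at CT30 (−2.23 ± 0.10, adjusted p = 1.3e-09) and 3.61-fold lower at CT18 (−1.85 ± 0.10, adjusted p = 7.6e-09), with replicates close together in all 4 groups. H2bc21, in the smaller cluster on chromosome 3, measured 236, 249 and 243 in MLL1-KO at CT30, against 448, 462 and 498 in WT. At CT18 it measured 233, 182 and 193 in MLL1-KO, against 462, 424 and 359 in WT, so that it was lower by a similar amount at both times (−0.91 ± 0.11, adjusted p = 2.6e-05, and −0.98 ± 0.11, adjusted p = 9.8e-06).

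Tested at each time, H2bc8 was called at CT30 alone. It measured 1154, 736 and 444 in MLL1-KO at CT30, against 2157, 1895 and 2012 in WT (−1.46 ± 0.32, adjusted p = 0.0025). At CT18 the MLL1-KO arrays stood apart from each other, at 636, 1464 and 1307 against 1401, 1457 and 1935 in WT, and overlapped with WT (−0.56 ± 0.32, adjusted p = 0.18). The difference between the times was not called (−0.90, adjusted p = 0.24). Averaged over both times H2bc8 was called lower, and that call held in all 26 alternatives that kept the threshold (−1.174 to −0.742). H2bc18 was higher at CT18, at 905, 971 and 1096 in MLL1-KO against 354, 320 and 593 in WT (1.25 ± 0.25, adjusted p = 0.00096). At CT30 it measured 1597, 1026 and 767 in MLL1-KO, against 719, 590 and 762 in WT (0.64 ± 0.25, adjusted p = 0.057). The lowest MLL1-KO array and the highest WT array were then nearly level. Averaged over both times H2bc18 was called higher, and that call held in all 26 alternatives that kept the threshold (0.804 to 1.075). The other 5 H2B genes had changes between −0.05 and 0.08 at CT30 and between 0.25 and 0.68 at CT18, none called. The 6 multi-gene H2B probe sets had changes between −0.18 and −0.08 at CT30 and between 0.09 and 0.21 at CT18, and the probe set of H2bc6 and H1f4 had 0.04 at CT30 and −0.83 at CT18 (adjusted p = 0.081), also with no call.

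The H2A genes showed 1 call. H2ac15 measured 5000, 5584 and 6153 in MLL1-KO at CT18, against 3713, 3292 and 5423 in WT (0.46 ± 0.17, adjusted p = 0.042), and WT replicate 3 overlapped with the MLL1-KO arrays. Its CT30 change was 0.13, and the 4 H2A genes ranged from −0.28 to 0.13 at CT30 and from 0.24 to 0.61 at CT18. Both multi-gene H2A probe sets were near 0 at CT30 (−0.02 and 0.03) and at 0.29 and 0.36 at CT18, without a call. The probe sets annotated to H2ac1 and H2bc1, known as the testis histones TH2A and TH2B, lay well above the filter in all groups. Whether that signal came from these genes or from related histone genes was not tested. H2ac1 had 2660, 2160 and 2118 in MLL1-KO CT30 and 2660, 2035 and 2270 in WT CT30, and H2bc1 had 2287, 1665 and 1514 in MLL1-KO CT30 and 2156, 1593 and 1677 in WT CT30. Neither was called in a genotype comparison. Of 4 germ cell markers, Ddx4, Sycp3 and Stra8 were below the filter (17.8 to 162 across the arrays) and Dazl, at 265 to 349, was not called.

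H3 carries the lysine that MLL1 methylates. Only 2 H3 genes had a tested probe set of their own, and H3c4 was lower in MLL1-KO at both times. It measured 2429, 1925 and 1594 in MLL1-KO at CT30, against 2911, 2832 and 2668 in WT (−0.52 ± 0.14, adjusted p = 0.011). At CT18 it measured 744, 1013 and 792 in MLL1-KO, against 2158, 2618 and 2353 in WT, which was 2.78-fold lower (−1.48 ± 0.14, adjusted p = 1.9e-06). The arrays did not overlap at either time, and the CT30 call was lost without MLL1-KO CT30 replicate 3 (−0.37, adjusted p = 0.057). H3c15 was not called (−0.36 at CT30 and −0.50 at CT18). The 10 multi-gene H3 probe sets, all listing the same 12 genes, had changes between −0.07 and −0.03 at CT30 and between 0.15 and 0.23 at CT18. None was called at either time (limma; 0 of 10 also at an unadjusted p under 0.05).

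H4 genes had no call at CT30, where the 6 ranged from −0.13 to 0.12 (limma; 0 of 6 also at an unadjusted p under 0.05), and 2 calls at CT18. H4c6 measured 2253, 2283 and 2956 in MLL1-KO at CT18, against 1622, 1359 and 2225 in WT (0.54 ± 0.20, adjusted p = 0.036). H4c4 measured 9309, 9821 and 10670 in MLL1-KO at CT18, against 6994, 6052 and 9625 in WT (0.42 ± 0.15, adjusted p = 0.036). Both passed only narrowly, and both calls were lost without MLL1-KO CT18 replicate 3, without WT CT18 replicate 1 and without WT CT18 replicate 2, with adjusted p between 0.094 and 0.16. The H4c4 call was also lost without MLL1-KO CT18 replicate 2 (0.071), with no intensity trend (0.051) and with only the arrays compared (0.062). H2ac15 lost its call in 9 of 26 settings: those 6 (0.056 to 0.18), no filter (0.058), and omission of MLL1-KO CT30 replicate 2 (0.053) or WT CT30 replicate 3 (0.055). The 5 multi-gene H4 probe sets had changes between −0.02 and 0.05 at CT30 and between 0.26 and 0.30 at CT18, and 4 of them had an unadjusted p under 0.05 at CT18 while none was called.

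Called genes stood beside neighbours that were not called. The Hist1 cluster on chromosome 13 holds 53 of the member genes in RefSeq, 23 of them with a probe set of their own. The 5 of them lower in MLL1-KO at CT30, H1f3, H2bc8, H3c4, H2bc4 and H1f2, all lay between positions 29 and 43 of the 53. The same stretch held H2ac8 (−0.01), H4c4 (0.04), H1f6 (−0.16) and H4c3 (0.12), none of which was called at CT30. H2ac8 and H2bc8 are adjacent, and their CT30 changes were −0.01 and −1.46. Beyond H2bc3 and H2ac4 (−0.01 and −0.28) lay H1f1, higher in MLL1-KO by 1.04, next to H2bc1 (0.00). In the Hist2 cluster on chromosome 3, with 10 member genes, H2bc21 was lower and H2bc18 was higher in MLL1-KO at CT18.

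**Figure D4:**
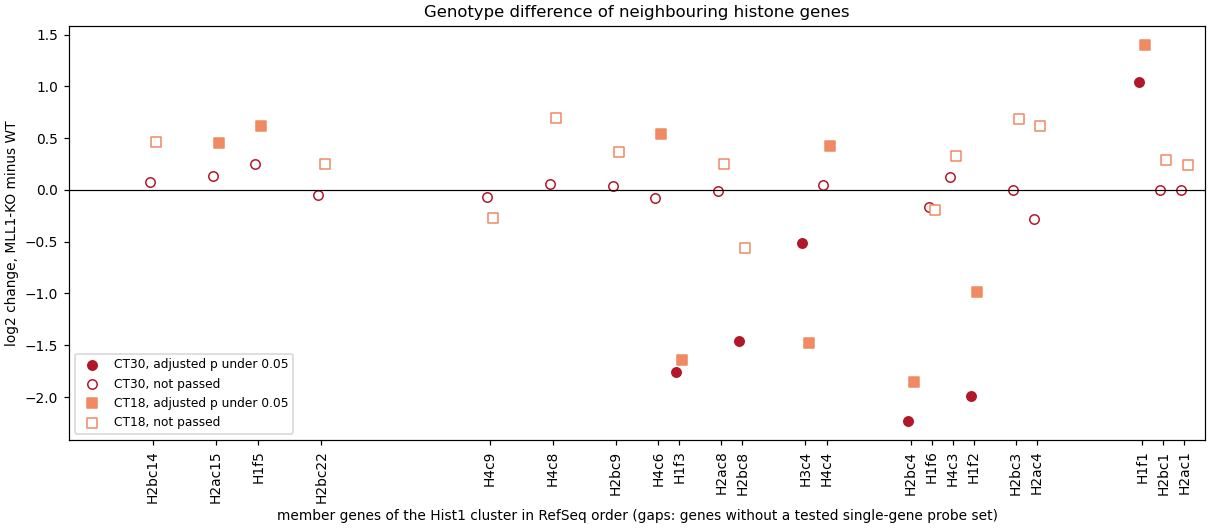
Difference in log2(intensity + 16), MLL1-KO minus WT (y axis), at CT30 (circles) and CT18 (squares) for the tested single-gene members of the Hist1 cluster in RefSeq order along chromosome 13 (x axis, by rank); filled symbols passed an adjusted p of 0.05. H1f3, H2bc8, H3c4, H2bc4 and H1f2 lie below 0 with other genes of the same stretch near 0, and H1f1 lies above 0.

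With time after the serum shock, 2 members were higher and 1 lower at CT30 than at CT18 in MLL1-KO cells, where 28% of all tested probe sets were called (15.9% higher and 12.1% lower). In WT cells 0 of 52 members were called by limma, where 0.98% of all tested probe sets were (0.55% higher and 0.43% lower). At an unadjusted p under 0.05 stood 39 of the 52, and 14.7% of all tested probe sets. These were 16 of the 28 single-gene and 23 of the 24 multi-gene probe sets. Multi-gene probe sets of a class share listed genes, so they are not separate measurements. In WT, 49 of the 52 changes were above 0 (43.3% over all tested probe sets), with a median of 0.39 against −0.03 for all. Above 0 were 25 of the 28 single-gene and all 24 multi-gene probe sets. In MLL1-KO, 46 of 52 were above 0 (54.4% over all), 22 of the 28 single-gene and all 24 multi-gene probe sets. The MLL1-KO median was 0.13, and it was −0.03 without MLL1-KO CT30 replicate 1. The 24 multi-gene probe sets had WT changes between 0.30 and 0.51.

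The WT count also moved when 1 array was left out. Without WT CT18 replicate 3, 28 members were called, all higher at CT30, where 2.41% of all probe sets were called, and the median change was 0.55. That array was the highest of its group in 46 of the 52 members, so leaving it out raises these changes by construction. With all arrays, the lowest adjusted p in WT belonged to H1f1 (0.75 ± 0.20, adjusted p = 0.10), which measured 1363, 1090 and 1376 at CT30 against 692, 634 and 959 at CT18 without overlap. H2ac4 had the highest WT change (1.06 ± 0.41, adjusted p = 0.25), at 1253, 1319 and 1331 at CT30 against 484, 450 and 1058 at CT18. H1f2 and H2bc4 had WT changes of −0.05 and 0.14 with no call.

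**Figure D5:**
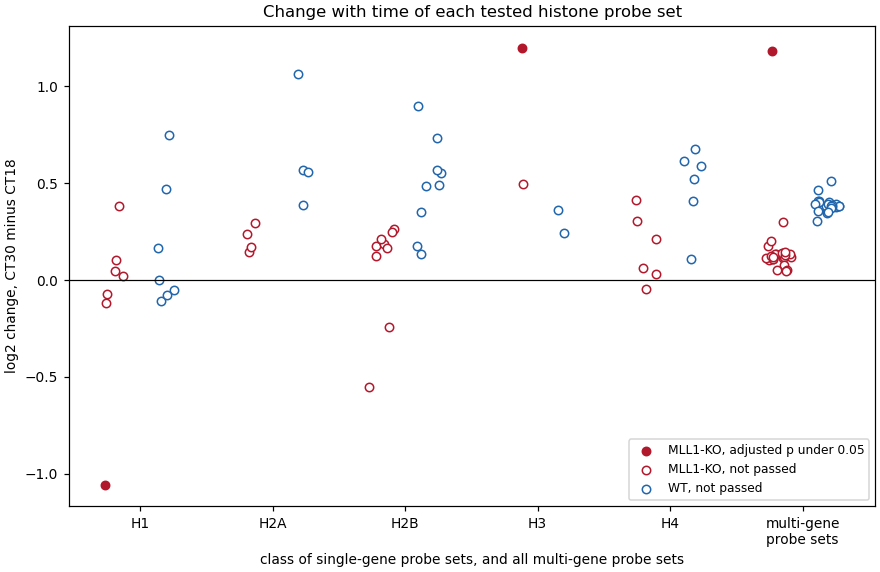
Difference in log2(intensity + 16), CT30 minus CT18 (y axis), for the 52 tested histone probe sets in MLL1-KO (red) and WT (blue), by class of single-gene probe sets and for the 24 multi-gene probe sets (x axis). Filled points passed an adjusted p of 0.05, which 3 did in MLL1-KO and 0 in WT; the WT multi-gene points lie between 0.30 and 0.51.

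In MLL1-KO cells the 3 calls were H1f2, H3c4 and the probe set that lists H2bc6 and H1f4. H1f2 was 2.08-fold lower at CT30 than at CT18 (1768, 1412 and 1502 against 2721, 3341 and 3758; −1.06 ± 0.11, adjusted p = 4.7e-05). H3c4 was 2.30-fold higher at CT30 (2429, 1925 and 1594 against 744, 1013 and 792; 1.20 ± 0.14, adjusted p = 9.6e-05). The arrays of the times did not overlap for either gene. The probe set of H2bc6 and H1f4 measured 2891, 2114 and 1788 at CT30 against 2209, 671 and 612 at CT18 (1.18 ± 0.37, adjusted p = 0.030). Its CT18 replicate 1 stood among the CT30 arrays, and the call was lost when only the arrays compared were fitted (adjusted p = 0.088) and without any 1 of MLL1-KO CT18 replicate 2 or 3 or MLL1-KO CT30 replicate 1 or 2 (0.066 to 0.13). Without MLL1-KO CT18 replicate 1 the count in this comparison was 6, 3 higher and 3 lower, with 31% of all probe sets called.

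The time change differed between genotypes for the same H1f2 and H3c4, where 11.2% of all tested probe sets were called (6.08% higher and 5.09% lower). For H1f2 the change in MLL1-KO minus that in WT was −1.01 ± 0.16 (adjusted p = 0.0032): −1.06 in MLL1-KO and −0.05 in WT. For H3c4 it was 0.96 ± 0.20 (adjusted p = 0.011): 1.20 in MLL1-KO and 0.24 in WT. Over all 52 members 45 differences were below 0 (41% over all tested probe sets), with a median of −0.29 against 0.05 for all tested probe sets. Below 0 were 22 of the 28 single-gene and 23 of the 24 multi-gene probe sets. The count was 2 with all arrays and 5 without MLL1-KO CT18 replicate 1 (18.8% of all probe sets). These comparisons share arrays with the genotype comparisons at each time and are the same measurements set out another way.

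Genes that act around the histone genes were taken as lists, whose counts stand beside those of all tested probe sets given above. Called were 39.8% of all between genotypes at CT30 and 49% at CT18. With time 28% were called in MLL1-KO and 0.98% in WT, and 11.2% in the difference of time effects. Whether a list departed from these shares was not tested. Of 32 S phase and DNA replication genes, 6 were higher and 11 lower in MLL1-KO at CT30, with a median change of −0.12, and 17 were higher and 4 lower at CT18, with a median of 0.32. Pold1 (DNA polymerase delta, 1.11), Chek1 (checkpoint kinase, 1.04) and Lig1 (DNA ligase, 0.96) had the highest CT18 changes, and Tyms (thymidylate synthase, −0.84), Gins3 and Rrm2 the lowest. In WT, 14 were higher at CT30 than at CT18 and 0 lower, led by Mcm5 (0.71) and Cdc6 (0.68), while in MLL1-KO 4 were higher and 5 lower. The difference of time effects was called for 16, all below 0, led by Pold1 (−0.97), Cdt1 (−0.92) and Cdc45 (−0.76). The S phase medians kept their sign under quantile, median and cyclic loess scaling and without WT CT18 replicate 3, and the 14 WT calls were 15 without that array.

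Of 28 genes of histone transcription and 3′ end processing, 5 were higher and 7 lower in MLL1-KO at CT30, and 10 higher and 7 lower at CT18. Slbp, which encodes the stem-loop binding protein, measured 1885, 1784 and 1611 in MLL1-KO at CT30, against 2520, 2396 and 2832 in WT (−0.55, adjusted p = 0.00071). The CT18 values of Slbp were 1944, 2532 and 2299 in MLL1-KO, against 1983, 1861 and 1771 in WT (0.26, adjusted p = 0.048), with overlapping arrays. The genotype difference of Slbp thus had opposite signs at the times, and the difference of time effects was −0.81 (adjusted p = 0.0051). Npat measured 1763, 1969 and 1992 in MLL1-KO at CT30, against 1679, 1688 and 1586 in WT (0.21, adjusted p = 0.11). At CT18 Npat measured 1875, 2263 and 2270 in MLL1-KO, against 1631, 1671 and 1390 in WT (0.44, adjusted p = 0.0015).

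Other members of that list also differed between genotypes, some of them at both times. Lsm11, a U7 snRNP subunit that recognises histone pre-mRNA, was higher in MLL1-KO (0.54 at CT30 and 1.22 at CT18), as was Sympk, the scaffold of the cleavage complex (0.73 and 1.07). Hinfp, the H4 promoter factor, was higher at CT18 (1.02) and not called at CT30 (0.16), with a called difference of time effects (−0.85, adjusted p = 0.011). Ncbp2, of the cap-binding complex, was lower (−0.43 and −1.01), as was cyclin E1, Ccne1 (−0.64 and −0.73), which activates the kinase that acts on NPAT. That kinase's gene, Cdk2, was lower at CT30 (−0.71). With time, 9 of the 28 genes were higher and 6 lower at CT30 in MLL1-KO, where 28% of all tested probe sets were called. In WT, 2 were higher and 0 lower, where 0.98% of all were called.

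Of 25 histone chaperone and import genes, 7 were higher and 5 lower in MLL1-KO at CT30, and 7 higher and 8 lower at CT18 (10 higher and 7 lower under quantile or median scaling). Daxx, the H3.3 chaperone, had the lowest change at both times (−1.84 and −1.98), followed by Ubn1 of the HIRA complex (−0.88 and −1.05) and the H3-H4 chaperone Asf1a (−0.68 and −1.04). Anp32e, which removes H2A.Z, was higher (0.98 and 0.82). Nasp, the H3-H4 chaperone that holds the soluble histone pool, was higher in MLL1-KO at CT30 (0.67) and level at CT18 (0.00, adjusted p = 0.98), and in MLL1-KO it was higher at CT30 than at CT18 (0.98, adjusted p = 4.0e-05). In WT, 2 of these genes were higher at CT30, Asf1b (0.54) and Chaf1b (0.48), and 0 were lower. In MLL1-KO, 10 of the 25 were higher at CT30 than at CT18 and 2 lower. With time, 28% of all tested probe sets were called in MLL1-KO and 0.98% in WT.

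Of 12 tested replication-independent histone genes, a list that also holds the members H1f7 and H1f10 (and H1f8, not tested), 3 were higher and 3 lower in MLL1-KO at CT30, and 3 higher and 4 lower at CT18. H1f10, the centromeric H3 gene Cenpa (0.54 and 0.55) and the H2A.Z gene H2az1 (0.46 and 0.34) were higher at both times. H2aj (−0.78 and −0.58) and the H3.3 gene H3f3a (−0.47 and −0.54) were lower at both, and H2az2 was lower at CT30 (−0.53). In WT 0 of these 12 were called with time by limma (2 of 12 at an unadjusted p under 0.05), against 0.98% of all tested probe sets. In MLL1-KO, where 28% of all were called, Macroh2a2, Macroh2a3 and H2az1 were higher at CT30 and H2az2 was lower. H2aw, H2bu2 and H4f16, whose older names place them with the Hist3h and Hist4h genes but whose updated names the rule does not match, were not called in any comparison, with genotype changes between −0.14 and 0.14 at CT30 and between 0.16 and 0.31 at CT18.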

How the data were processed

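RNA of 12 fibroblast samples was hybridised to Affymetrix arrays, 3 for each of 4 groups taken from the sample labels. The authors deposited 1 linear intensity for each probe set, and per the submitters' processing notes used PLIER 2.0 in Affymetrix Expression Console 1.1. The sources used here do not give the normalization between arrays. Platform annotation gave 21789 probe sets 1 gene symbol, 1621 several and 12147 none, and 701 probe sets had values identical to another.

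Values were taken as log2(intensity + 16), which understates the change of dim genes. After dropping probe sets whose mean was under the 30th percentile, limma 3.58.1 (R 4.3.3) was fitted to the other 24890 on all 12 arrays (4 group means, eBayes with intensity trend, 8 residual and 4.57 prior degrees of freedom). P-values are two-sided, Benjamini-Hochberg adjusted over all 24890, and called under 0.05. The fit was tested on data simulated with independent noise for each probe set and array. That simulation does not cover shifts shared by the histone probe sets of an array. The number of arrays limits the precision.

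The members and gene lists were chosen with earlier results of these data known. Named members were, per class, up to 2 called rises and falls and the member of highest level, the 3 largest and 3 smallest changes, and members called at 1 time alone. From each list Slbp, Npat and Kmt2a and up to 3 called rises and falls were named. Cluster neighbours, testis histones and further list genes were named after their values were seen. Gene order and promoters came from RefSeq (GRCm38.p6). No alternative test tool was run, and no probe sequence was used.

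Alternatives were offsets of 1 and 64, other filters, 3 scalings, other eBayes settings, array weights, only the arrays compared, a 2-fold minimum, only members with 1 symbol, a replicate block and leaving out each array. Entering identical probe sets once was added after seeing the data.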

Additional observations from a re-analysis of the deposited data

Results flagged for a closer look

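The genotype effect of H1f2 differed between the times, by a test of the difference itself. Its log2 change, MLL1-KO minus WT, was −1.99 at CT30 and −0.98 at CT18, and the difference of −1.01 had a standard error of 0.16 (limma, adjusted p = 0.0032). The genotype effect of H3c4 differed in the opposite direction, at −0.52 at CT30 and −1.48 at CT18, a difference of 0.96 with a standard error of 0.20 (adjusted p = 0.011). Both came from MLL1-KO arrays that did not overlap between the times, and the WT changes were −0.05 and 0.24. The WT arrays of H3c4 did not overlap between the times either (limma, adjusted p = 0.48), while those of H1f2 did. The call of both genes held in 26 alternatives that kept the threshold, and that of H3c4 was lost when a 2-fold change was required in addition.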

How the results depend on the processing

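Of 35 calls of single members, 29 held in 26 alternatives that kept the threshold and 0 reversed; a 2-fold minimum in addition left 22 of the 35. Those of H1f5, H4c6, H2ac15 and H4c4 at CT18, H3c4 at CT30 and the H2bc6 and H1f4 probe set with time in MLL1-KO were lost in 1 to 9 of the 26, as listed above. With array weights (limma warned that their estimation stopped early) the counts of members called were 29 at CT18 against 12 in the analysis as reported, 27 averaged over the times against 10, 19 with time in MLL1-KO against 3, 32 with time in WT against 0, and 18 against 2 in the difference. A 2-fold minimum left 6 at CT18, 6 averaged and 1 in the difference. With only probe sets that have a symbol, 20 were called at CT18 and 1 with time in WT. Leaving out 1 array at a time gave 8 to 9 at CT30, 8 to 39 at CT18, 10 to 22 averaged, 2 to 6 with time in MLL1-KO, 0 to 28 with time in WT and 2 to 5 in the difference. The cause of these shifts was not tested. A replicate block left all 6 counts as they were (8, 12, 10, 3, 0 and 2). The sources used here do not give whether replicate numbers pair the samples. Deviations from group means in same-numbered arrays of different groups had correlations of −0.366 to 0.506, over 0.1 in 7 of 18 pairs. Other pairs had −0.442 to 0.391. These values pool all pairs of groups and all tested probe sets, so they cannot settle pairing within a time.

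Under quantile scaling the CT18 members split 12 higher and 5 lower, and under cyclic loess those with time in MLL1-KO split 2 and 2. Median member changes kept their sign under all 3 scalings. Over all probe sets the WT time count of 244 was 142 with no filter, 487 with a symbol, 143 with medians set equal, 1511 with array weights, 57 with only the arrays compared, 145 with the block and 36 to 600 with 1 array left out. That of the difference, 2780, was 8981 with array weights and 1395 to 4668 with 1 array left out, and the MLL1-KO time count of 6977 was 16164 with array weights. With medians set equal the WT time calls split 118 higher and 25 lower, and those of the difference 769 and 1609 (1095 and 1667 under cyclic loess), against 1513 and 1267 as reported. Signal over background was not analysed here, so the precision of dim probe sets is known from their spread alone.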
